A study of Mus musculus with 9 samples.

Results

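The nuclear receptors other than the estrogen-related receptors were followed in the ventricles of fetal mice that differ in Esrrg, which encodes estrogen-related receptor gamma, or ERRγ. They are 43 genes, listed by name, of which 41 were represented on the array by at least 1 probe set naming the gene alone, out of 18193 genes so represented. Nr1h2 and Nr2e3 were not analysed here. In all 107 probe sets named a member, and each receptor was read from its brightest one. Messenger RNA came from cardiac ventricles of male fetuses at E18.5, shortly before birth, on 9 Affymetrix arrays. The WT group carried 2 intact copies of Esrrg (ERRg +/+), the HET group 1 copy (ERRg +/-) and the KO group none (ERRg -/-), with 3 arrays each. No agent was given to any group, per the labels. They name no promoter or Cre and do not describe how the allele was made. Per the labels a group may stand for 3 single ventricle samples or each array for a pool of 3, which cannot be told from them, and p-values here cover array-to-array spread only.

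Nuclear receptors are transcription factors of one protein family, most with a domain that binds short DNA sequences and a domain that can hold a small fat-soluble ligand such as a steroid, thyroid hormone, retinoic acid or a fatty acid. Many bind DNA as a pair with a retinoid X receptor (RXR), and others, called orphans, have no accepted natural ligand. In the heart they are known for the thyroid hormone control of myosin genes, the control of fatty acid oxidation by the PPAR receptors, the retinoic acid and RXR dependence of ventricular wall growth in the mouse embryo, and the action of glucocorticoids on late fetal maturation.

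The genotype labels held up against Esrrg, the gene that defines them. Esrrg itself read 206 to 281 over the WT arrays, 162 to 164 over the HET arrays and 39.3 to 58.3 over the KO arrays (MAS5 signal, a linear brightness). Every KO array lay below every HET array, and every HET array below every WT array. All 10 ventricular cardiomyocyte marker genes were clearly expressed by the definition given next. So were 5 of the 8 atrial cardiomyocyte markers, and whether the samples held atrial tissue was not tested. None of the 8 hepatocyte, 7 adrenal, 6 adipocyte, 6 lung, 6 neural or 5 thymus markers with a probe set was clearly expressed. Array medians ran from 36.6 to 45.9. The poly-A spike-in controls, RNAs added to each sample before labelling, parted the arrays into 2 sets by the ratio of thr to dap: the 3 WT arrays and HET replicate 1 (log2 ratio from -0.66 to -0.42), and HET replicates 2 and 3 with the 3 KO arrays (from -1.07 to -0.88). The cut was put at the widest gap between the sorted ratios, a rule that gives 2 sets whatever the data. Whether the sets are a true batch was not tested. The labels do not describe these sets. They coincide with genotype for WT and KO, so values with the set as a block are given beside many of the results. That block rests the KO against WT difference on the single HET array of the first set.

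Clear expression of a receptor was taken as a signal of at least 100 on all 9 arrays and above, on each array, the 95th percentile of 77 genes for olfactory, vomeronasal and taste receptors, which are not expected in ventricle. That percentile ran from 29.1 to 61.4 over the arrays. By this definition 13 of the 41 receptors were clearly expressed, or 31.7%, against 43.04% of all 18193 genes. They were Thra, Rarb, Rarg, Rxra, Rxrb, Ppara, Nr1d2, Nr2c1, Nr2c2, Nr2f6, Nr3c1, Nr4a1 and Nr0b2. A further 19 were dim, passing the background level on at least 1 array, and 9 stayed under it on every array. Probe sets differ in brightness for reasons other than RNA amount, so signals of different receptors are not ranked against each other. In bulk tissue, fewer cells of a type and less RNA per cell cannot be told apart.

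**Figure D1:**
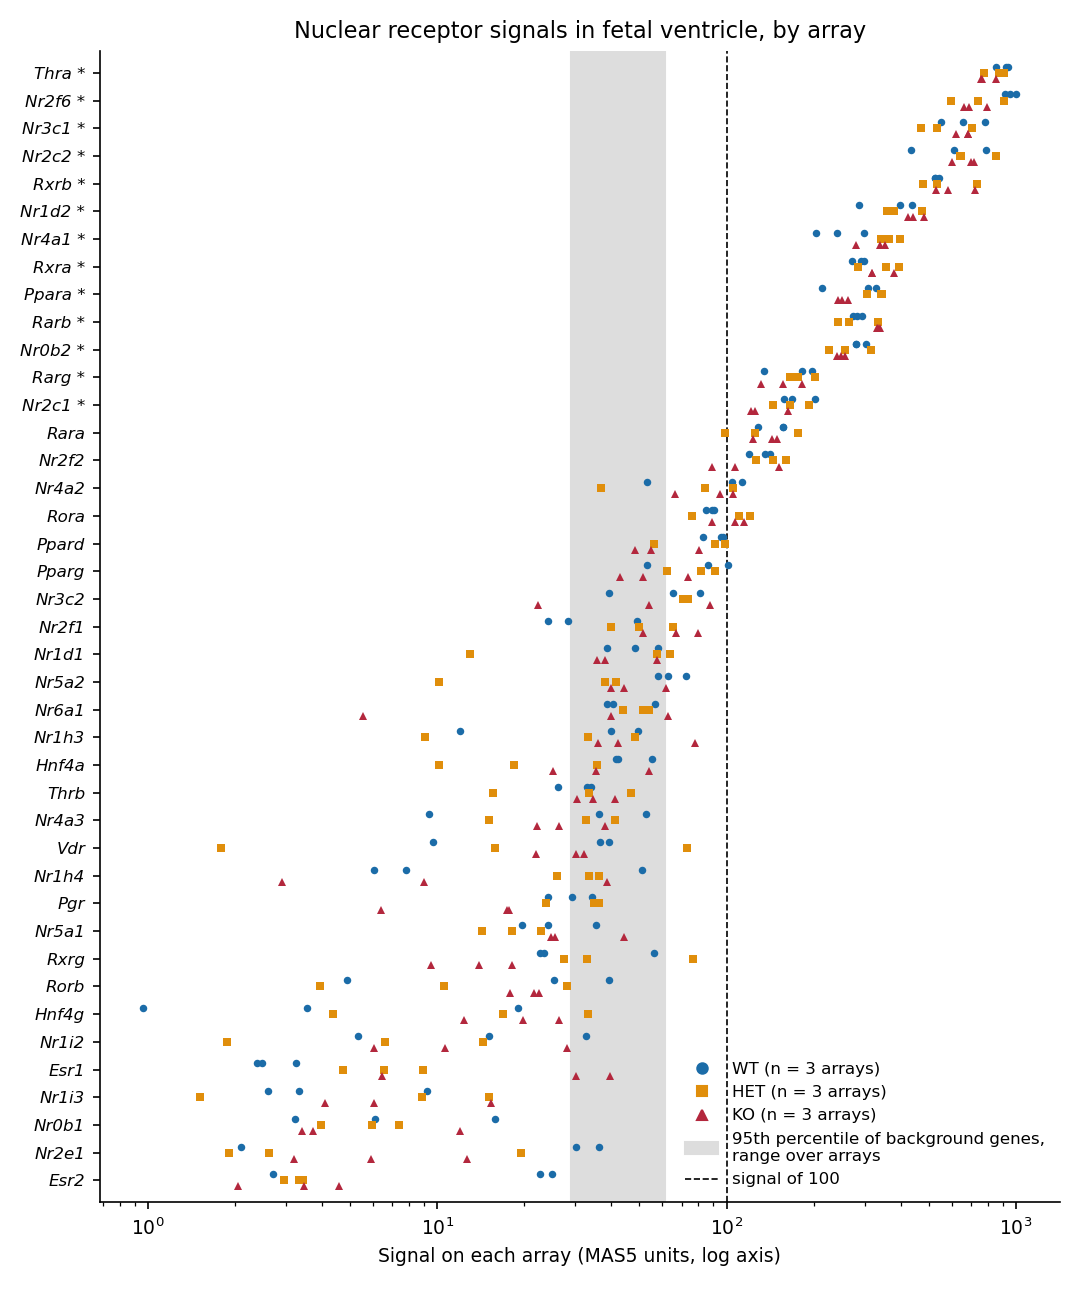
Signal of the brightest probe set of each of the 41 receptors (MAS5 units, log axis) on 9 arrays, with WT, HET and KO arrays as separate symbols. The grey band is the range over arrays of the 95th percentile of the 77 background genes, the dashed line is a signal of 100, and an asterisk marks the 13 clearly expressed receptors, whose symbols all lie to the right of the line.

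Among the receptors for thyroid hormone and retinoids, 5 of 8 were clearly expressed. Thra, the thyroid hormone receptor that predominates in heart, read 943, 858 and 927 in WT, with 914, 872 and 777 in HET and 858, 766 and 759 in KO. It was the steadiest clearly expressed receptor, with a ratio of 1.24 between its highest and lowest array. Thrb, the other thyroid hormone receptor, was dim at 15.6 to 46.6. The retinoic acid receptor gene Rarb read 273, 284 and 293 for WT, 243, 265 and 334 for HET and 333, 338 and 332 for KO. Rarg had a lowest signal of 132, a median of 177 and a highest of 202 over the 9 arrays. Rara missed the definition on 1 array, HET replicate 3 at 98.9, and otherwise read 123 to 176. Rxra, the RXR subtype required for ventricular wall growth in the mouse embryo, read 272, 291 and 298 on the WT arrays, 394, 355 and 286 on the HET arrays and 318, 319 and 380 on the KO arrays. Rxrb ranged from 477 to 736 with a median of 533. Rxrg was dim, and only 1 of its 9 arrays passed the background level.

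Of the 10 measured sensors of lipids, bile acids and foreign compounds, Ppara was the only clearly expressed one. It encodes the PPAR subtype best known for driving fatty acid oxidation genes. Ppara read 308, 329 and 213 in WT, with 343, 346 and 307 in HET and 250, 264 and 243 in KO. Its 2 other probe sets were also clearly expressed. Ppard, the broadly expressed PPAR subtype, was dim with a median of 82.7, and Pparg, the adipocyte regulator, was dim with a median of 73.8. Nr1h3 (LXRα, an oxysterol receptor), Vdr (the vitamin D receptor) and Hnf4a (a liver and gut regulator) were dim, with medians of 39.98, 30.1 and 35.7. Nr1h4 (FXR, the bile acid receptor), Nr1i2 and Nr1i3 (PXR and CAR, the xenobiotic receptors of liver) and Hnf4g were at background. Of the 8 measured hepatocyte markers, Afp, Apoa1, Ttr and Fgb were at background too. The other hepatocyte markers, Ahsg, Alb, Apoa2 and Apob, were dim, with Ahsg at 44.85 to 146.7.

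Of the clock group, Nr1d2 was clearly expressed. It encodes REV-ERBβ, a heme-binding repressor of the circadian clock, and ranged from 287 to 481 with a median of 425. Nr1d1, for the related REV-ERBα, was dim at 12.9 to 63.97. Rora, an activator of the same clock sites, ranged from 76.0 to 121 and reached 100 on 4 of the 9 arrays, and Rorb was at background.

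Among the NR2 orphans, 3 of the 6 measured were clearly expressed. Nr2f6 (EAR2) encodes a repressor of the COUP-TF family and had a median of 799 over a range of 599 to 1003. Nr2c2 (TR4) ranged from 433 to 858, a ratio of 1.98 that was the widest among the clearly expressed receptors, and Nr2c1 (TR2) from 122 to 202. Nr2f2 (COUP-TFII), a regulator of atrial and venous identity, missed the definition on KO replicate 2 at 88.8 and otherwise read 107 to 161. Nr2f1 (COUP-TFI) was dim at 24.2 to 79.8, and Nr2e1 (TLX, a neural stem cell factor) was at background. The summed signal of 8 atrial marker genes was 33350 to 38820 in WT, 35260 to 38890 in HET and 34820 to 41290 in KO.

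Of the 5 steroid receptors, the glucocorticoid receptor gene Nr3c1 was clearly expressed and the others were not. Nr3c1 read 784, 658 and 554 for WT, 706, 536 and 471 for HET and 686, 621 and 683 for KO. Nr3c2, for the mineralocorticoid receptor, was dim with a median of 70.5. Esr2 (estrogen receptor beta) and Pgr (the progesterone receptor) were at background on all 9 arrays. Esr1 (estrogen receptor alpha) passed the background level on KO replicate 2 alone. It read 2.48, 2.38 and 3.26 on the WT arrays, 8.94, 6.56 and 4.71 on the HET arrays and 6.44, 39.4 and 30.1 on the KO arrays, and its mean was too low for it to be tested.

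Nr4a1 (NUR77), a receptor of the immediate early response, was the clearly expressed member of the NR4A genes, with a median of 340. Nr4a2 (NURR1) was dim at 36.7 to 113, and Nr4a3 (NOR1) was dim at 9.35 to 52.7. In the last group, Nr0b2 (SHP), an atypical receptor without a DNA-binding domain that represses other receptors and is best known in liver, was clearly expressed. It read 280, 303 and 279 in WT, with 315, 227 and 256 in HET and 256, 241 and 249 in KO. It has a single probe set here, so no second one could be set beside it. The sums of the 8 hepatocyte markers lay between 139 and 337 over the 9 arrays. Nr5a2 (LRH-1, a bile acid and steroid synthesis regulator), Nr5a1 (SF-1, the steroidogenic regulator) and Nr6a1 (GCNF, a germ cell factor) were dim, and Nr0b1 (DAX-1), a partner of SF-1 in the adrenal gland, was at background. Of the 7 measured adrenal markers, Cyp11b1, Cyp17a1 and Hsd3b1 were at background as well, and Star, Cyp21a1, Cyp11a1 and Mc2r were dim.

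The classes depended on the probe set. Of the 9 clearly expressed receptors with more than 1 probe set, 3 passed with every probe set, namely Thra, Ppara and Nr2f6. For Nr1d2, Nr2c1, Nr2c2, Nr3c1, Rarg and Rxra at least 1 other probe set was dim or at background. The third probe set of Rxra, for example, stayed at background, with means of 29.0, 17.6 and 3.52 in WT, HET and KO. Nr3c1 had 6 probe sets, whose WT means ran from 13.1 to 665.

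In the KO against WT comparison, which asks what differs when ERRγ is lost, no receptor was called. Of the 13028 genes bright enough to be tested, 32 were members. At an adjusted p under 0.05 (limma, Benjamini-Hochberg over all genes tested) 0 of the 32 were called, against 1.62% of all genes, 0.737% higher and 0.883% lower in KO. At an unadjusted p under 0.05 there were 3 of 32 (Nr2f6, Nr4a1 and Nr2f1), or 9.4%, against 17.2% of all genes. The arrays of both genotypes did not overlap for 9 of 32 receptors, or 28.1%, against 25.0% of all genes. The members' median difference was -0.09 on the log2 scale, against -0.01 for all genes tested, with 14 higher and 18 lower. The intervals bound what these arrays could have missed. The 95% intervals of the 13 clearly expressed receptors all lay between -0.70 and 0.69, that is, within 1.62-fold lower and 1.61-fold higher in KO. With the spike-in set as a block they widened to between -1.02 and 1.00. For the 18 dim receptors tested they reached from -1.55 to 1.40, and with the block from -2.63 to 3.58, where 2 of the 18 stayed within 1 log2 unit of 0.

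**Figure D2:**
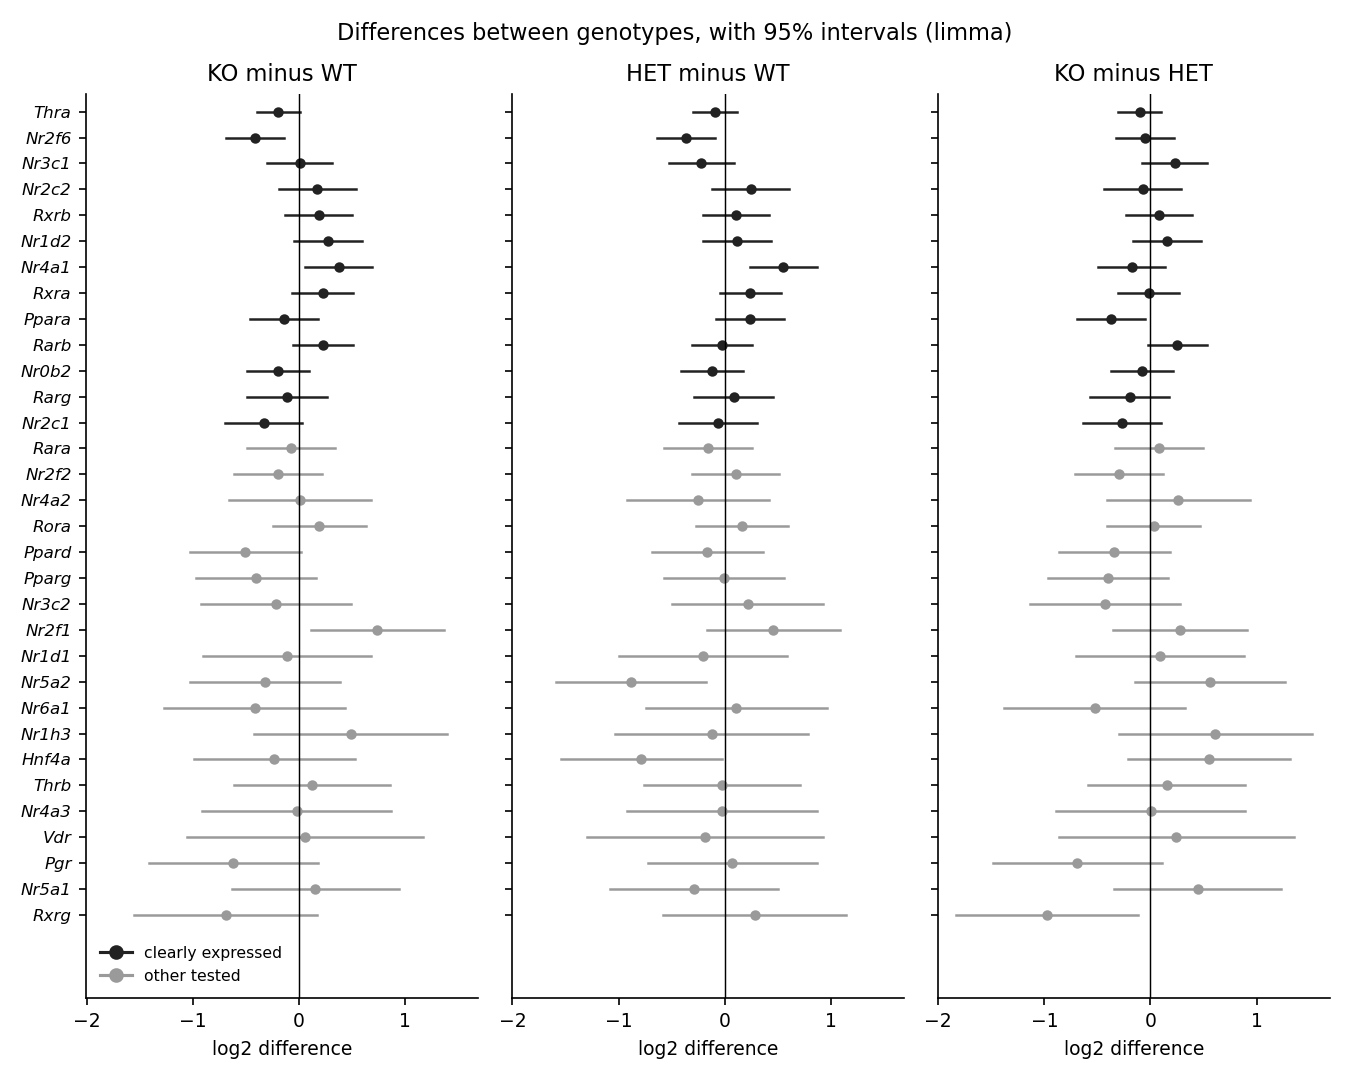
Log2 difference of each of the 32 tested receptors between genotypes, KO minus WT, HET minus WT and KO minus HET, with 95% intervals from limma; black marks the 13 clearly expressed receptors and grey the others. Every black interval stays within 1 log2 unit of 0, and the grey ones are wider.

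Nr2f6 had the smallest p of any receptor in KO against WT. It read 915, 1003 and 957 for WT, 909, 742 and 599 for HET and 799, 661 and 691 for KO. All KO arrays lay below all WT arrays, and HET replicate 1 lay next to WT while the other 2 HET arrays lay with KO. The KO minus WT difference was -0.41 on the log2 scale (SE 0.13, 95% interval -0.69 to -0.14, n = 3 each), with an adjusted p of 0.111 by limma. HET replicate 1 shares the first spike-in set with WT, and with the set as a block the difference was 0.02 (SE 0.18). Without HET replicate 1, Nr2f6 was called lower in KO (adjusted p = 0.0258 by limma), when 6.45% of all genes were called. With only the 6 WT and KO arrays it was called too (adjusted p = 0.0207), when 5.93% of all genes were. Without HET replicate 1 the HET minus WT difference was -0.51 and was called (adjusted p = 0.0225 by limma), when 4.41% of all genes were. In each of these fits the WT arrays are of the first spike-in set and all others of the second. Genotype and set therefore cannot be told apart in them.

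The second probe set of Nr2f6 gave a different picture of HET replicate 1. It read 427, 542 and 434 on the WT arrays, 296, 291 and 264 on the HET arrays and 315, 342 and 352 on the KO arrays. All HET arrays, of both spike-in sets, lay below all WT arrays, as did all KO arrays. In a fit of each probe set on its own, KO minus WT was -0.45 (SE 0.13, adjusted p = 0.0957 by limma) and HET minus WT was -0.68 (SE 0.13, adjusted p = 0.201). With the set as a block these were -0.36 and -0.62. For the brightest probe set, HET minus WT was -0.37 (SE 0.13) without the block and -0.07 with it. Neither probe set was called with all arrays.

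**Figure D3:**
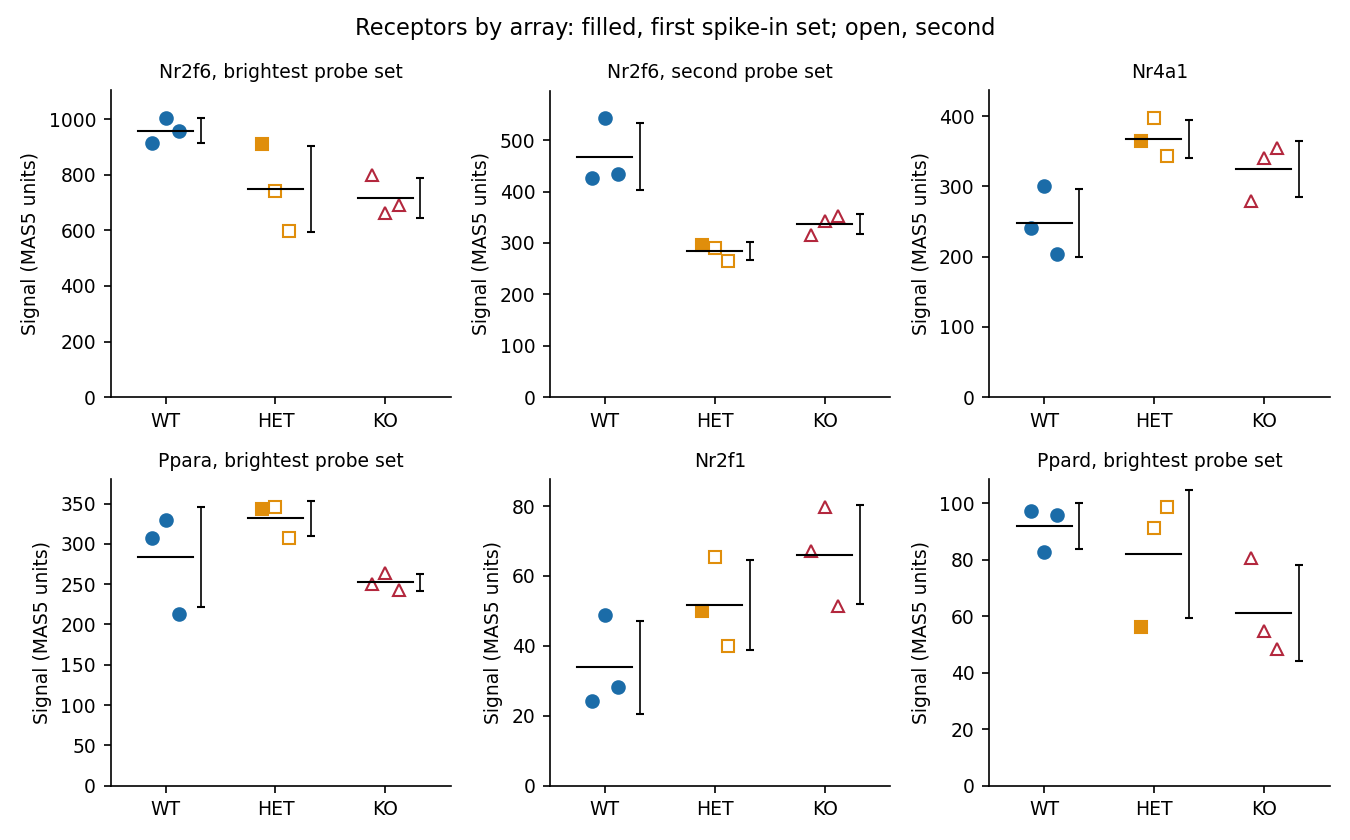
Signal (MAS5 units, axes from 0) of Nr2f6 by its 2 probe sets, and of Nr4a1, Ppara, Nr2f1 and Ppard, for each array of WT, HET and KO; filled symbols are arrays of the first spike-in set, open symbols of the second, lines are means and bars beside them ± 1 SD (n = 3). HET replicate 1, the filled HET symbol, lies with WT for the brightest Nr2f6 probe set and with the other HET arrays for the second.

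Nr4a1 was lowest in WT. It read 241, 300 and 204 in WT, with 364, 397 and 343 in HET and 280, 340 and 354 in KO. All HET arrays lay above all WT arrays, and KO overlapped with both. HET minus WT was 0.55 (SE 0.15, adjusted p = 0.293 by limma) and KO minus WT was 0.38 (SE 0.15, adjusted p = 0.197), neither called. The set block left these at 0.54 (SE 0.21) and 0.36 (SE 0.27). NR4A genes are switched on within minutes by many stimuli, tissue handling included, and the other immediate early genes were set beside Nr4a1. Of 14 tested, 9 were higher and 5 lower in KO than in WT and none was called, with a median of 0.02. Egr3 had the smallest p, at -1.48 (SE 0.42, adjusted p = 0.0888 by limma), or -2.09 with the block. Klf4 followed at 0.45, which became -0.01 with the block. In HET against WT, 4 of the 14 were higher and 10 lower. Whether handling had a part in the Nr4a1 values was not tested.

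The dim receptor Nr2f1 read 24.2, 48.9 and 28.4 for WT, 50.02, 65.4 and 39.8 for HET and 67.1, 79.8 and 51.4 for KO. KO and WT did not overlap, and HET overlapped with both. The difference between KO and WT was 0.74 (SE 0.30, adjusted p = 0.205 by limma), and 0.71 with the set block (SE 0.55). Several of these signals lay at the level of the background genes. Ppard read 97.3, 82.7 and 96.0 on the WT arrays, 56.2, 91.4 and 98.8 on the HET arrays and 80.6, 54.8 and 48.3 on the KO arrays. Its KO minus WT difference was -0.50 (SE 0.25, adjusted p = 0.310 by limma). With the set block it was -1.12, and HET replicate 1 was the lowest HET array.

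The remaining receptors named in this comparison were not called either. Thra differed by -0.19 (SE 0.10, adjusted p = 0.327 by limma) and Nr2c1 by -0.33 (SE 0.17, adjusted p = 0.343). Nr1d2 differed by 0.27 (SE 0.15) and Rarb by 0.23 (SE 0.13), with adjusted p of 0.376 and 0.403 by limma. Without WT replicate 2, the lowest array of Nr1d2, its difference was 0.10, and with its probe sets averaged it was 0.57. All 3 KO arrays of Rarb lay between 332 and 338, while HET replicate 3 stood at 334 and HET replicate 1 at 243. With the set block Thra came to -0.05, Rarb to -0.05, Nr1d2 to 0.04 and Nr2c1 to -0.35. The glucocorticoid receptor gene Nr3c1 differed by 0.01 (95% interval -0.30 to 0.32), and by 0.49 with the block, where HET replicate 1 is the highest of its genotype. Other tested Nr3c1 probe sets differed by -0.10 to 0.46, and by -0.33 to -0.08 with the block. With the block 6 of 32 receptors passed an unadjusted p of 0.05 (Nr5a2, Ppard, Vdr, Nr3c1, Rxra and Nr4a2), or 18.8%, against 6.19% of all genes, and 0 of 32 were called by limma, against 0.00768% of all genes.

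**Figure D4:**
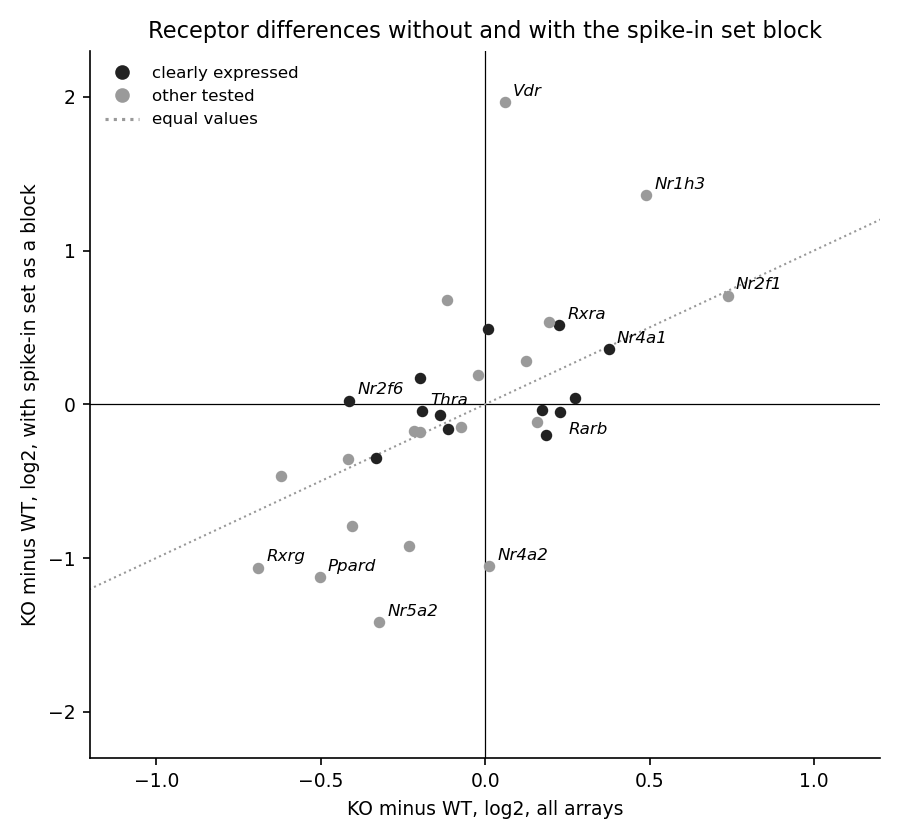
Log2 difference KO minus WT of the 32 tested receptors in the fit over all 9 arrays (horizontal axis) and in the fit with the spike-in set as a block (vertical axis); black marks clearly expressed receptors, grey the others, and the dotted line equal values. Nr4a1 (0.38 and 0.36) and Nr2f1 (0.74 and 0.71) lie near the line, while Nr2f6 moves from -0.41 to 0.02 and Ppard from -0.50 to -1.12.

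In HET against WT, which asks whether losing 1 copy has an effect, 0 of 32 receptors were called by limma, and 0.0% of all genes were. An unadjusted p under 0.05 was reached by 4 of 32 (Nr4a1, Nr2f6, Nr5a2 and Hnf4a), or 12.5%, against 11.5% of all genes. The same 4 were those whose HET and WT arrays did not overlap, against 13.7% of all genes. Nr5a2 read 62.7, 57.8 and 72.4 in WT, with 10.1, 38.1 and 41.6 in HET and 44.3, 39.9 and 62.0 in KO. Its HET minus WT difference was -0.89 (SE 0.33, adjusted p = 0.360 by limma), and -1.62 with the set block, with HET replicate 1 the lowest array. Other tested Nr5a2 probe sets gave -0.26 and 0.33 (-0.77 and -0.11 with the block), with HET and WT arrays overlapping. Hnf4a, at or near background, differed by -0.78 (SE 0.36, adjusted p = 0.422), and by -1.24 with the block. The other differences named were 0.24 for both Rxra and Ppara, 0.46 for Nr2f1 and -0.22 for Nr3c1, with adjusted p from 0.526 to 0.593 by limma. With the block they were 0.44 for Rxra, 0.28 for Ppara, 0.44 for Nr2f1 and 0.10 for Nr3c1. Other tested Nr3c1 probe sets gave 0.002 to 0.22 without the block. The intervals of the 13 clearly expressed receptors lay between -0.64 and 0.87.

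In KO against HET, 0 of 32 receptors were called by limma, against 0.0154% of all genes, and the 8 named differences had an adjusted p of 0.989. An unadjusted p under 0.05 was reached by 2 of 32, Ppara and Rxrg, against 4.81% of all genes. Non-overlapping arrays were found for 4 of 32 (Ppara, Rxrg, Nr5a1 and Pgr), or 12.5%, against 10.5% of all genes. All KO arrays of Ppara, at 243 to 264, lay below all HET arrays, at 307 to 346, and the difference was -0.37 (SE 0.15) with its brightest probe set. The 2 other Ppara probe sets gave -0.05 and -0.26. WT spanned both groups, at 213 to 329. Rxrg read 22.6, 23.4 and 56.0 for WT, 33.0, 76.5 and 27.5 for HET and 9.52, 13.9 and 18.1 for KO, a KO minus HET difference of -0.97 (SE 0.41). Its values lay mostly at the level of the background genes. The progesterone receptor gene Pgr, at background throughout, differed by -0.69, Nr2c1 by -0.27, Rarb by 0.25, Nr3c1 by 0.23, and the dim Nr5a2 and Hnf4a by 0.56 and 0.55. With the block Rarb was at 0.16, Nr3c1 at 0.39, Nr5a2 at 0.20 and Hnf4a at 0.32. Other tested probe sets of Nr5a2 gave 0.11 and -0.28 (-0.14 and -0.50 with the block). Those of Nr3c1 gave -0.14 to 0.24 (-0.18 to -0.02 with the block). The intervals of the clearly expressed receptors lay between -0.69 and 0.54.

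Other probe sets of the receptors were tested on their own. None of the 65 member probe sets tested was called in any of the 3 comparisons by limma. Of the 14 receptors with at least 2 tested probe sets, 5 had the same sign with every probe set in KO against WT, and 4 in each of the other comparisons. Ppara gave -0.14, 0.22 and 0.04 for KO minus WT with its 3 probe sets.

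The partners and targets of the receptors were read from lists of 130 genes in all, chosen with earlier results of these data known. All 20 measured coregulators, proteins through which the receptors act on chromatin, were clearly expressed. In KO against WT 10 were higher and 10 lower, none was called, and Tbl1x, part of a corepressor complex, had the smallest p, at 0.35 (SE 0.09, adjusted p = 0.0639 by limma; 0.15 with the set block). The coactivator gene Ncoa2 came next at 0.52 (adjusted p = 0.127; 0.11 with the block). Of 18 known PPAR targets tested, 5 were higher and 13 lower in KO, with a median of -0.13 against -0.01 for all genes (-0.07 against 0.02 with the set block). Fabp3, which carries fatty acids in cardiomyocytes, was the 1 PPAR target called. It read 19020, 19310 and 20350 on the WT arrays, 18950, 17120 and 17360 on the HET arrays and 16070, 15830 and 16330 on the KO arrays. All KO arrays lay below all others, and Fabp3 fell by 0.28 on the log2 scale (SE 0.06, adjusted p = 0.0291 by limma; -0.15 with the set block). Many of these genes are also known targets of the estrogen-related receptors.

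The other lists held no called gene in any genotype comparison. Of 10 LXR targets tested, 8 were higher and 2 lower in KO than in WT, with a median of 0.08 (0.02 with the set block). Pltp, a phospholipid transfer protein, differed by 0.75 (adjusted p = 0.0742 by limma; -0.12 with the block) and Scd2, a fatty acid desaturase, by 0.28 (adjusted p = 0.115; -0.02 with the block). Of 6 tested genes of retinoid supply, 4 were higher, with Aldh1a1, a retinaldehyde dehydrogenase, at 0.92 (adjusted p = 0.201; 1.12 with the block) from dim signals of 6.81 to 82.2. Rdh10, a retinol dehydrogenase, differed by 0.43 (adjusted p = 0.339; 0.49 with the block). Of 10 genes of thyroid hormone supply and response, 7 were higher and 3 lower, with Myh7, the slow myosin heavy chain, at -0.17 (adjusted p = 0.129; -0.19 with the block) and Atp2a2, the calcium pump of the sarcoplasmic reticulum, at -0.11 (adjusted p = 0.381; 0.06 with the block). Glucocorticoid genes split 7 and 7, with a median of -0.06 that became 0.09 with the block. Mt1, a metallothionein, differed by -0.17 (adjusted p = 0.228; 0.04 with the block) and Fkbp4, a receptor chaperone, by -0.16 (adjusted p = 0.325; -0.07 with the block). Clock partners split 8 and 8, with Cry1, a clock repressor, at 0.43 (adjusted p = 0.361; 0.13 with the block) and Bhlhe40, another clock repressor, at 0.23 (adjusted p = 0.399; -0.10 with the block).

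Markers of other cells of the heart differed in part between KO and WT. All 10 endothelial and all 9 fibroblast markers were clearly expressed, and 3 of 8 epicardial ones. So were 7 of 8 smooth muscle and pericyte, 5 of 10 macrophage and leukocyte and 1 of 5 measured erythroid markers. Of the endothelial markers 2 were higher and 8 lower in KO, with a median of -0.08 that became 0.14 with the set block. Of the epicardial ones 5 were higher and 3 lower (median 0.17, or 0.08 with the block), and of the fibroblast ones 8 were higher and 1 lower (median 0.20, or 0.24 with the block). Smooth muscle and pericyte markers split 5 higher and 3 lower (median 0.18, or 0.21 with the block). Macrophage and leukocyte markers split 6 and 4 (median 0.09, or 0.25 with the block), and the 3 tested erythroid ones 2 and 1. None of the smooth muscle, pericyte, macrophage, leukocyte or erythroid markers was called. Kdr, an endothelial growth factor receptor, was called lower in KO (-0.74, adjusted p = 0.0262 by limma; -0.25 with the set block). The epicardial Tbx18 was called higher (0.84, adjusted p = 0.032; 0.23 with the block), and so was the fibroblast gene Lum (0.33, adjusted p = 0.0482; 0.34 with the block). Nppa, the atrial natriuretic peptide gene that fetal ventricle also expresses, was the 1 atrial marker of 8 called, and was higher in KO (0.24, adjusted p = 0.0459; 0.34 with the block). Of the 8 atrial markers 3 were higher and 5 lower, with a median of -0.13 that became 0.25 with the block, and Stk39 differed by -0.32 (adjusted p = 0.075). These called markers stand beside the 1.62% of all genes called in this comparison. Summed fibroblast markers ran from 35040 to 39950 in WT, 34940 to 40280 in HET and 39710 to 41100 in KO. Summed epicardial markers ran from 860 to 1403 in WT, 1509 to 1629 in HET and 1132 to 1552 in KO. The part of these cells in the receptor values was not tested.

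ERRγ is known to bind the element TNAAGGTCA, an extended form of the AAGGTCA that many receptors of this family share, and both were searched on both strands of the RefSeq promoter windows (GRCm38.p6, 250 bases before to 50 after a start site). Windows were held for 39 of the 43 receptors, 56 windows in all. Thra, Hnf4g, Nr3c1 and Nr5a1 had no window and were not searched. TNAAGGTCA was found for 0 of the 39, against 1.43% of 27025 genes. AAGGTCA, which TNAAGGTCA contains, was found for 3 of the 39 (Rxra, Rxrg and Nr6a1), against 5.38% of genes. The 3 stretches are shown because they are the only matches among the 39 receptors searched. Each runs 5′ to 3′ on the strand of its gene, with the match, or its reverse complement TGACCTT for Nr6a1, in capitals.
Rxra, chr2:27709213-27709279, plus strand: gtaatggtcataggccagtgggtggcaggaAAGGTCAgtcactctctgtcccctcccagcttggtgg
Rxrg, chr1:167618146-167618212, plus strand: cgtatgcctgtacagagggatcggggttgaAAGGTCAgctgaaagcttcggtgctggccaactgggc
Nr6a1, chr2:38784570-38784636, minus strand: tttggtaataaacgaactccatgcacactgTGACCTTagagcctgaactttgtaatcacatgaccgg
The matches begin 49, 89 and 91 bases before an annotated start. A match is a description of these letters and not a binding site. None of the 3 receptors was called in any comparison: KO minus WT was 0.22 for Rxra, -0.69 for Rxrg and -0.42 for Nr6a1, with adjusted p of 0.432, 0.412 and 0.653 by limma, and 0.51, -1.06 and -0.35 with the set block.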

How the data were processed

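The authors deposited 1 intensity per probe set and array on a linear scale, made with MAS5 per the submitters' processing notes, which name no version. Each column's mean without its top and bottom 2% was 200, so arrays had been scaled one at a time, and array background and dim signals keep their noise. The number of arrays limits the precision. No detection calls were used. RNA was extracted on columns and 6 µg was labelled, per the labels' protocols.

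The 43 members, the gene lists, the spike-in sets and the level definition were chosen with earlier results of these data known. Of the probe sets other than 64 controls, 34945 name 1 gene in the platform annotation, 932 several and 9160 none. Of those naming 1 gene, 34741 had a gene ID found in RefSeq and took its symbol, which changed the symbol of no member. Signals became log2(signal + 16), so fold changes of dim genes come out too small. Genes whose brightest probe set averaged under the 40th percentile (signal 21.7) were left out, 5165 in all, among them 9 members (Nr1h4, Rorb, Hnf4g, Nr1i2, Esr1, Nr1i3, Nr0b1, Nr2e1 and Esr2). The genotype fit used limma 3.58.1 (R 4.3.3), with 1 mean per genotype over 9 arrays (eBayes with an intensity trend, two-sided, Benjamini-Hochberg over 13028 genes). It was tested on simulated data that held no spike-in set effect, so that test does not bear on the sets. Differences were named for members called and otherwise for the 4 members with the smallest p in each direction, and, in KO against WT, for genes of the companion lists called and otherwise the 2 with the smallest p; cell markers were named where called. Nr3c1, Rxra, Rxrg and Nr6a1 in KO against WT, Esr1 and Stk39 were named after their values were seen.

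Alternatives were quantile normalization, a shift of arrays to one median, pseudocounts of 1 and 64, other filters, averaging the probe sets that name a gene, single probe sets, eBayes without the trend, only the 6 arrays compared, the spike-in set or the replicate number as a block, leaving out each array, and other level definitions. Fitting each probe set with the set block was added after seeing the data. Figures used matplotlib 3.10.9 in Python 3.11.15.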

Additional observations from a re-analysis of the deposited data

How the results depend on the processing

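Of 493 values of the 24 named differences under 21 alternatives, 484 kept their direction and their side of the threshold. None of the 24 was called in the main fit, so keeping the side of the threshold says little by itself. The number of receptors called was 0 in each comparison with all arrays in the fit, and 1 (Nr2f6, lower, adjusted p = 0.0207 by limma) in KO against WT with only the 6 arrays compared, when 5.93% of all genes were called. Leaving out each array in turn gave 0 to 1 receptors called in KO against WT, 0 to 1 in HET against WT and 0 to 0 in KO against HET. The 1 was Nr2f6 without HET replicate 1, at -0.41 (adjusted p = 0.0258 by limma) and -0.51 (adjusted p = 0.0225). Without that array the spike-in sets part WT from HET and KO, so genotype and set cannot be told apart. With the spike-in set as a block the direction turned for Nr2f6 (0.024) and Rarb (-0.047) in KO against WT and for Nr3c1 (0.10) in HET against WT. With averaged probe sets it turned for Rxra (-0.12) and Nr3c1 (0.018) in HET against WT and Nr5a2 (-0.044) in KO against HET. The cause was not tested. Leaving out 1 array moved some uncalled differences by over 1.5 times. Without HET replicate 1, Nr5a2 was at -0.52 in HET against WT and 0.20 in KO against HET, and without HET replicate 3 Nr2f6 was at -0.22 in HET against WT. Without WT replicate 3 Ppara was at 0.06 in HET against WT, and Nr3c1 ranged from -0.38 to -0.10 there. Pseudocounts of 1 and 64 moved the dim Rxrg to -1.55 and -0.47 in KO against HET. With the replicate number as a block 0 receptors were called in each comparison by limma. Deviations from the genotype means correlated at -0.04 to 0.05 between same-numbered arrays. Because noise of single arrays also enters them, these correlations cannot tell whether such arrays share a litter or day. The labels do not state it.

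The number of clearly expressed receptors was 7 when every probe set of a gene had to pass, without Nr1d2, Nr2c1, Nr2c2, Nr3c1, Rarg and Rxra. It was 16 at a signal of 50, which adds Nr2f2, Rara and Rora, and 11 at 200, without Nr2c1 and Rarg. Leaving out each array gave 13 to 14. Signals near the background genes limit what can be said of the dim receptors, whose differences had 95% half-widths of 0.41 to 1.11 on the log2 scale.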
